A study of Homo sapiens with 8 samples.

Results

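The cytosolic ribosomal protein genes were taken as all protein-coding genes of GENCODE release 44 whose symbol has the form of an RPL, RPLP, RPS or RPSA gene, which leaves out the RPS6K kinases. The rule found 88 members among 20046 protein-coding genes: 77 core genes, 46 for the large and 31 for the small ribosomal subunit, and 11 paralogues or Y-linked copies. The rule uses the symbol alone and no measured value. Bound genes are those with a peak that reaches into the promoter window of any transcript, which spans 1000 bp before and 500 bp after the transcription start site (TSS) on hg38.

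Ribosomal proteins and ribosomal RNA make up the cytosolic ribosome, which translates nuclear-encoded mRNA, and nearly every growing cell expresses these genes at a high level. Their transcripts typically start with a cytosine followed by an unbroken stretch of pyrimidines, the terminal oligopyrimidine (TOP) tract, through which mTOR signaling controls their translation. PHF20 and PHF20L1 are related chromatin proteins with Tudor and PHD finger domains, and each is a subunit of the NSL complex, which contains the histone acetyltransferase KAT8 and acts at promoters of housekeeping genes.

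The data were ChIP-Seq with an antibody against the HA tag in U2OS, a human osteosarcoma cell line. Cells overexpressed PHF20 with a 3xHA tag at the N terminus (2 ChIP libraries and 1 input library) or PHF20L1 with the same tag at the N terminus (1 ChIP and 1 input library) or C terminus (2 ChIP and 1 input libraries), and the transduced cells were sorted by GFP. Every library therefore came from cells that held a tagged protein from a lentiviral vector in addition to their own copy. What was deposited is 1 final list of peak positions per protein, 4147 peaks for PHF20 and 723 for PHF20L1, built by the authors from peaks of the best replicate that the other replicates also held, so that positions and widths are those of 1 replicate. The lists hold no heights, no reads and no value per replicate, so the depth behind each peak is unknown, no difference between groups of genes was tested, and the Wilson 95% intervals cover counting error only. A promoter without a listed peak was not called at the thresholds the authors used, and lower occupancy may have gone unlisted.

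PHF20 was found at 44 of the 88 ribosomal protein genes (50%, interval 39.8% to 60.2%), where 20.7% of all protein-coding genes had a PHF20 peak. PHF20L1 was found at 10 (11.4%, interval 6.29% to 19.7%), where 3.82% of all protein-coding genes had one. All 10 promoters with PHF20L1 also had PHF20, as did 747 of the 766 protein-coding genes with a PHF20L1 peak. PHF20L1 lay at 22.7% of the PHF20-bound ribosomal protein genes (interval 12.8% to 37.0%), beside 18.0% of all PHF20-bound protein-coding genes. Without the 11 paralogues and Y-linked copies, PHF20 was found at 40 of 77 genes (51.9%) and PHF20L1 at 9 (11.7%). Both subunits of the ribosome were represented. PHF20 bound 23 of 46 large subunit genes (50%, interval 36.1% to 63.9%) and 17 of 31 small subunit genes (54.8%, interval 37.8% to 70.8%), and PHF20L1 bound 4 (8.70%) and 5 (16.1%) of them, so that the intervals of both subunits overlap for both proteins.

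**Figure D1:**
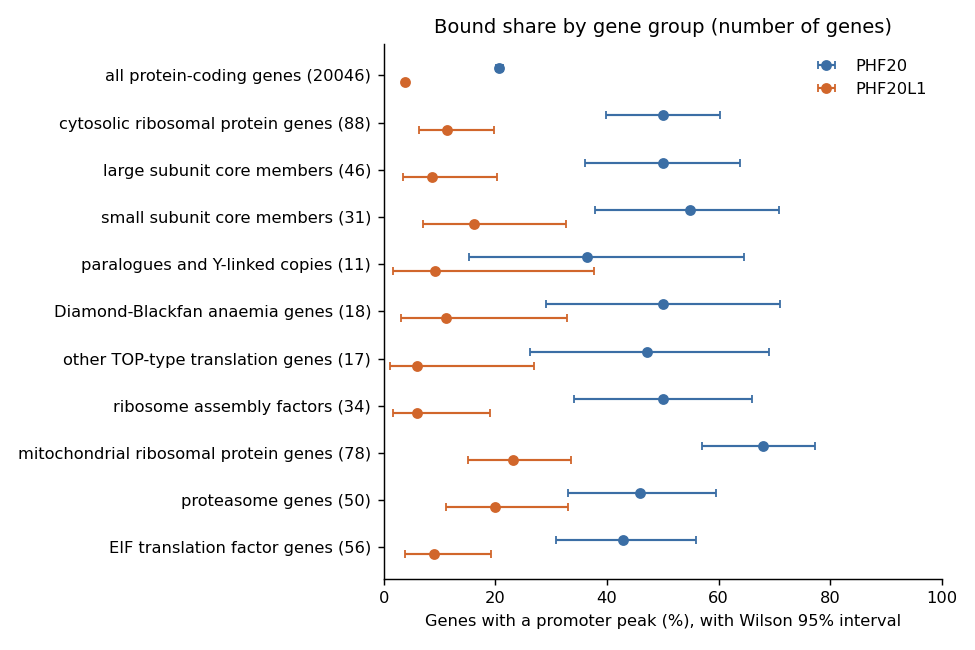
Percentage of genes with a promoter peak of PHF20 (blue) or PHF20L1 (orange) in each gene group, with the number of genes in parentheses. Points are shares and bars are Wilson 95% intervals. The ribosomal protein genes lie at 50% for PHF20 and 11.4% for PHF20L1, beside 20.7% and 3.82% of all protein-coding genes, and the mitochondrial ribosomal protein genes lie highest for both proteins.

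The large subunit genes with a PHF20 peak were RPL3, RPL4, RPL5, RPL6, RPL7A, RPL9, RPL11, RPL14, RPL18, RPL19, RPL21, RPL22, RPL23, RPL23A, RPL24, RPL27A, RPL29, RPL31, RPL34, RPL37, RPL37A, RPL41 and RPLP2. Those of the small subunit included RPS2, RPS3, RPS3A, RPS4X, RPS7, RPS14, RPS19, RPS20, RPS21, RPS25, RPS26, RPS27, RPS28 and RPSA. These sets cut across functional parts of the ribosome. The acidic stalk of the large subunit, which recruits translation factors, is built from the products of RPLP0, RPLP1 and RPLP2. Only RPLP2 of these 3 genes had a peak, and it had peaks of both proteins, all of them also in reach of PIDD1. RPL5 and RPL11, whose products join the 5S ribosomal RNA and can bind and inhibit MDM2 when ribosome assembly is disturbed, both had a PHF20 peak, of 505 bp and 356 bp, and no PHF20L1 peak. Of 18 ribosomal protein genes that are mutated in the inherited anemia Diamond-Blackfan syndrome, PHF20 bound 9 (50%, interval 29.0% to 71.0%) and PHF20L1 bound 2, RPS7 and RPS26.

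Among the paralogues, RPL22L1, RPL36AL, RPL7L1 and RPS27L had a PHF20 peak. RPL3L, RPL10L, RPL26L1, RPL39L, RPS4Y1, RPS4Y2 and RPSA2 had none. Core gene and paralogue did not always share the state: RPL22 and RPS27 were bound along with RPL22L1 and RPS27L, whereas RPL7L1 (1101 bp) and RPL36AL (579 bp) carried a PHF20 peak and RPL7 and RPL36A did not. RPL3 and RPSA were bound without their copies RPL3L and RPSA2. For RPS4Y1 and RPS4Y2 the lack of a peak cannot be told apart from a lack of the chromosome in this line, so they were not set against RPS4X. RPL10, RPL26 and RPL39 were unbound, as were their copies.

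The 10 promoters with both proteins included those of RPL23, RPL29, RPL37, RPLP2, RPS7, RPS14, RPS20 and RPS26, which are core genes, and that of the paralogue RPL7L1. At RPL37, a large subunit gene, the PHF20L1 peak was 597 bp wide, at percentile 94.1 of all PHF20L1 peak widths, and the PHF20 peak was 1085 bp wide. At RPL29 the PHF20L1 peak was 467 bp wide and the PHF20 peak 790 bp. At RPS14, which codes for a small subunit protein and lies in the segment commonly deleted in the 5q- form of myelodysplastic syndrome, these widths were 413 bp and 881 bp, and at RPS26 they were 372 bp and 546 bp. The PHF20L1 peaks of the other 6 promoters were narrower than the 314 bp median of the PHF20L1 list, among them 282 bp at RPS7, 249 bp at RPLP2, 227 bp at RPL7L1, 211 bp at RPL23 and 203 bp at RPS20. The PHF20 peak beside them measured 701 bp at RPS7, 364 bp at RPLP2, 1101 bp at RPL7L1, 997 bp at RPL23 and 882 bp at RPS20. Of the 10 PHF20L1 peaks, 8 lay wholly inside a PHF20 peak. The exceptions were RPL29, where 443 of 467 bp were shared, and RPLP2, where 231 of 249 bp were shared. The count depends on these narrow peaks. With peaks under 300 bp left out, 4 members kept a PHF20L1 peak (RPL29, RPL37, RPS14 and RPS26), which is 4.55% of members beside 2.27% of all protein-coding genes, a smaller contrast than 11.4% beside 3.82%.

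PHF20 peaks of the ribosomal protein genes had a median width of 703 bp (lowest 231 bp, highest 1543 bp; widest peak of each of the 44 genes, which for RPL6 and RPL27A is one near an alternative TSS), beside 682 bp over all 4148 bound protein-coding genes and 963 bp over the 53 bound mitochondrial ribosomal protein genes. The widest was at RPL14 (1543 bp, percentile 99.2 of all PHF20 peak widths), followed by RPL24 (1380 bp), RPL21 (1334 bp) and RPL9 (1177 bp), and the 6 widest also included RPL7L1 (1101 bp). The 6 narrowest included RPL41 (231 bp), RPS4X (270 bp), RPL7A (298 bp), RPL11 (356 bp) and RPLP2 (364 bp). Of the 6 widest only RPL7L1 had a PHF20L1 peak, and of the 6 narrowest only RPLP2 had one. The 10 members with both proteins had a median PHF20 width of 835.5 bp (364 to 1101 bp) and the 34 with PHF20 alone one of 677.5 bp (231 to 1543 bp), ranges that overlap over the whole span of the first.

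**Figure D2:**
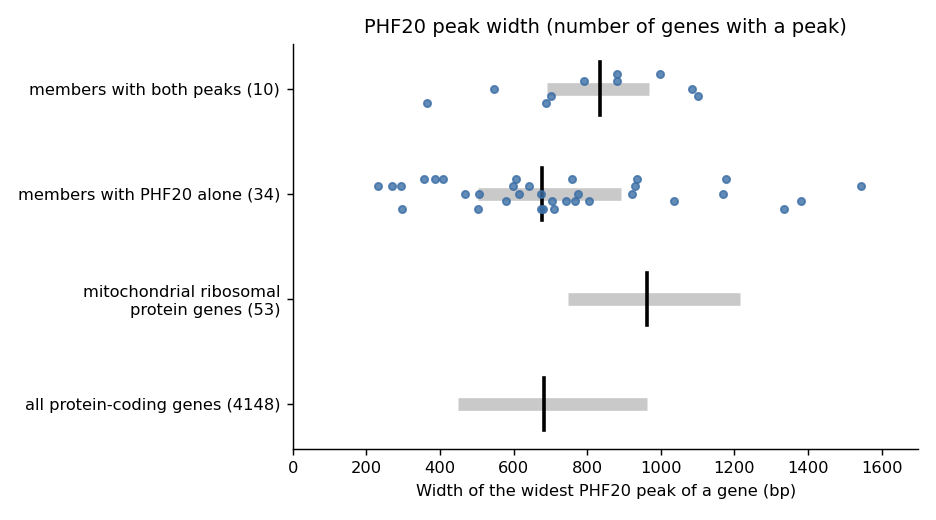
Width in bp of the widest PHF20 peak of each bound gene. Blue points are single ribosomal protein genes, grey bars span the middle quartiles and black lines mark medians; for the lower 2 groups only quartiles and median are drawn. Medians are 835.5 bp with both proteins, 677.5 bp with PHF20 alone, 963 bp for mitochondrial ribosomal protein genes and 682 bp for all protein-coding genes.

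The peaks lay on the TSS. In all, 47 PHF20 peaks fell in reach of the 44 genes, and 42 of them contained the TSS of the canonical transcript. Their centers had a median position of -39 bp from it (negative is upstream; range -360 to 157.5 bp), with 28 genes centered upstream, 15 downstream and RPS27 at 0. The peaks reaching farthest upstream were those of RPL14, which spanned -1131 to 411 bp, and of RPL21, which began at -917 bp. RPL6 (-94 to 409 bp), RPS26 (-128 to 417 bp) and RPL23A (-91 to 377 bp) had the peaks centered farthest downstream. Over all bound protein-coding genes the median center was at -6.8 bp. The 10 PHF20L1 peaks were centered at a median of -109.8 bp, 8 upstream and 2 downstream, and 6 of them contained the TSS. Over all protein-coding genes with a PHF20L1 peak the median center was at -61 bp, with 454 upstream and 312 downstream. At RPS14 the PHF20L1 peak spanned -413 to -1 bp, and at RPL23 it spanned -215 to -5 bp, both ending just before the start site within a PHF20 peak that crossed it. The PHF20L1 peak at RPS26 (-11 to 360 bp) lay almost entirely downstream.

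**Figure D3:**
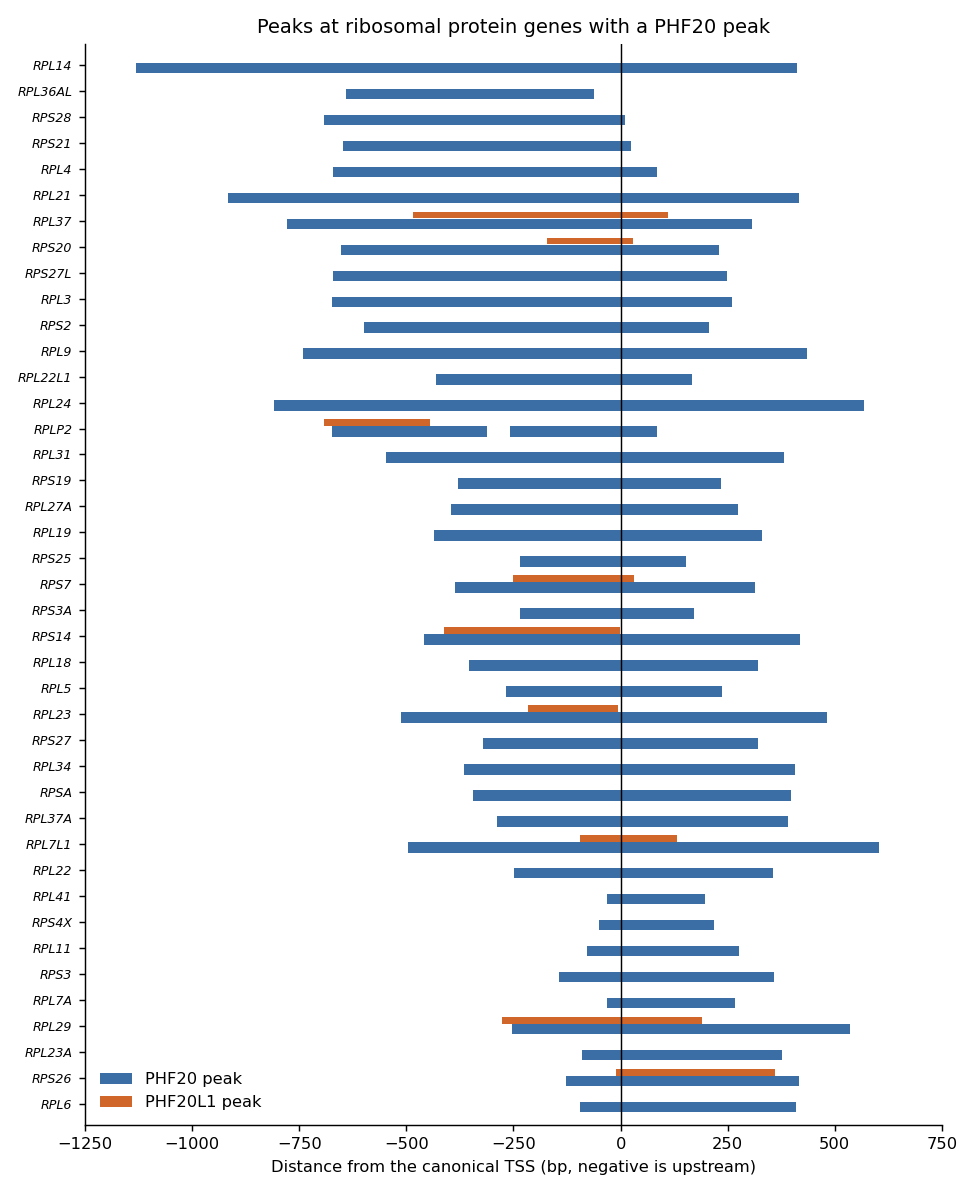
Position of PHF20 peaks (blue) and PHF20L1 peaks (orange, offset upward) at 41 of the 44 bound ribosomal protein genes, in bp from the canonical TSS, ordered by the center of the PHF20 peak nearest the TSS. A vertical line marks the TSS, and 42 of all 47 PHF20 peaks at members contain it. Second PHF20 peaks at alternative start sites of RPL27A (center at 6180 bp) and RPL6 (center at -9259 bp) lie outside the plotted range.

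Of the peaks that did not contain the canonical TSS, several were at other start sites. RPLP2 had adjacent PHF20 peaks of 364 bp (-674 to -311 bp) and 345 bp (-258 to 86 bp), and its PHF20L1 peak (-692 to -444 bp) overlapped the upstream one. Second PHF20 peaks were listed for RPL27A (709 bp, center at 6180 bp) and RPL6 (1037 bp, center at -9259 bp, also in reach of PTPN11), each in reach of the TSS of an alternative transcript. The peak of RPL36AL (-640 to -62 bp) ended upstream of the canonical TSS and contained the TSS of MGAT2 on the other strand.

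A peak at a head-to-head promoter lies in reach of both of its genes. In 18 members (20.5%) the TSS of another protein-coding gene lay on the other strand within 1000 bp upstream, beside 12.6% of all protein-coding genes. Any transcript of the neighbor counted. The canonical start sites of some pairs therefore lay farther apart, as for RPLP2 and PIDD1 (4736 bp) and for RPS16 and SUPT5H (9633 bp). PHF20 bound 9 of these 18 (50%, interval 29.0% to 71.0%) and 35 of the 70 without such a neighbor (50%, interval 38.6% to 61.4%). Over all protein-coding genes the shares were 42.7% with and 17.5% without such a neighbor, with intervals of 40.8% to 44.7% and 16.9% to 18.1%. At the 9 bound members the PHF20 peak nearest the TSS was centered at a median of -86 bp, 8 of 9 upstream, and it contained the TSS of the member in 8 cases and the canonical TSS of the neighbor in 6. At RPL9 (neighbor LIAS, 134 bp away) the center lay 153 bp from the RPL9 TSS and 19 bp from that of LIAS, and at RPL18 (neighbor SPHK2, 328 bp away) it lay 17 bp and 311 bp from them. The pairs of RPL4 with ZWILCH, RPS25 with TRAPPC4, RPL7A with MED22, RPL27A with TRIM66 and RPS28 with NDUFA7 each had a peak in reach of both genes. At the 35 bound members without such a neighbor the median center was -20 bp, with 20 upstream and 14 downstream. Over all PHF20-bound protein-coding genes with such a neighbor the median center was -82 bp, with 664 upstream and 419 downstream. Over those without one it was 19 bp, with 1447 upstream and 1616 downstream.

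The distance to the nearest PHF20 peak was taken for the unbound core members, without a value for other unbound genes beside it. Of the 37 unbound core genes, the nearest PHF20 peak lay a median of 147524 bp from any of their start sites and over 100000 bp away for 21 genes. For 4 of them it lay within 10000 bp, and each of these peaks was at the promoter of another gene, as for RPLP0 (2142 bp, peak at GCN1), RPL8 (3403 bp, ZNF34) and RPS24 (3494 bp, POLR3A). The peak at RPS2 was likewise the nearest to the paralogue RPL3L, at 7014 bp. RPLP0, which codes for a stalk protein and is widely used as a reference gene in qPCR, had no peak of either protein in its own window. The same 44 and 10 genes were bound with windows of 500 bp or 2000 bp on each side.

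The medians of mappability were close in bound and unbound members. Only uniquely mapped reads had been retained by the authors, and ribosomal protein genes have many processed pseudogenes, so the share of 50-base sequences that occur once in hg38 was computed for each promoter window. Its median was 98.9% (86.0% to 100%) in the 44 bound and 98.5% (80.1% to 100%) in the 44 unbound members. The lowest value of all, 80.1%, was at RPS29, an unbound gene, and RPLP0 had 85.3%. RPL29 (86.0%) was bound by both proteins. Of 1605 ribosomal protein pseudogenes, 3 had a PHF20 peak at their annotated start (0.187%, interval 0.0636% to 0.548%), and these peaks were also at the promoters of SAMM50, PSMC2 and PARL. PHF20L1 was listed at 0 of 1605, which allows a share of up to 0.187%.

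The promoter sequences were read from hg38 around the canonical TSS, from 250 bases before it to 50 bases from it onward, and searched on both strands for short sequences that known promoter-binding factors recognize. The ETS family recognizes ACTTCCGG, with CTTCCG as its core. Stretches from 75 bases upstream to the fifteenth transcribed base are shown for RPS14, which had peaks of both proteins, for RPL31, RPS25 and RPL27A, which had a PHF20 peak, and for RPL32, which had neither. Capitals mark ACTTCCGG or its reverse complement, the sequence TCGCGAGA in RPL27A, and the pyrimidine run that contains the TSS. The stretches lie at chr5:150449725-150449814 (RPS14, minus strand), chr2:101002214-101002303 (RPL31, plus), chr11:119018329-119018418 (RPS25, minus), chr11:8682717-8682806 (RPL27A, plus) and chr3:12841551-12841640 (RPL32, minus).
RPS14: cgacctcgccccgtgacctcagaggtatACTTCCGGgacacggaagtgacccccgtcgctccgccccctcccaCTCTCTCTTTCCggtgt
RPL31: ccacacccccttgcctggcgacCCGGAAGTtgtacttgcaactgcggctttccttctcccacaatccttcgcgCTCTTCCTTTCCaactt
RPS25: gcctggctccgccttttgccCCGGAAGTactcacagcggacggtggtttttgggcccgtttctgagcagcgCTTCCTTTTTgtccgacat
RPL27A: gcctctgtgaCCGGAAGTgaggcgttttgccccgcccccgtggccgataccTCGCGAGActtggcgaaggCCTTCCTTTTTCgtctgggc
RPL32: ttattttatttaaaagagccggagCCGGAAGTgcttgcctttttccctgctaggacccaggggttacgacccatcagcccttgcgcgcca
The ETS site started at -47, -53, -55 and -65 in the 4 bound promoters and at -51 in that of RPL32, where the annotated start is an A outside any pyrimidine run. RPL32 thus held the same sequence at nearly the same distance from its annotated start, without a peak. Among all members with ACTTCCGG, it started between 70 and 40 bases upstream in 5 of 9 bound members. Of 4 unbound members with it, 1 did so, RPL32 itself. A start between 100 bases and 1 base upstream was found in 7 of the 9 and 1 of the 4. Whether the position bears on binding was not tested.

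ACTTCCGG was found in 13 members (14.8%, interval 8.84% to 23.7%), beside 6.14% of all protein-coding promoters. It was found in 9 of the 44 bound members, among them RPL7L1, RPL19, RPL27A, RPL31, RPLP2, RPS14, RPS25 and RPS27L, each time inside a PHF20 peak. It was also found in 4 of the 44 unbound members, RPL26L1, RPL32, RPS6 and RPS18. The bound share was 69.2% of members with the sequence (interval 42.4% to 87.3%) and 46.7% of those without (interval 35.8% to 57.8%), and the intervals overlap. Over all protein-coding genes these shares were 55.6% and 18.4%. The shorter core CTTCCG, which every ACTTCCGG contains, was found in 54 members (61.4%), beside 25.4% of all promoters. PHF20 bound 51.9% of the 54 with it (interval 38.9% to 64.6%) and 47.1% of the 34 without it (interval 31.5% to 63.3%), whereas the shares over all protein-coding genes were 40.1% and 14.1%.

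**Figure D4:**
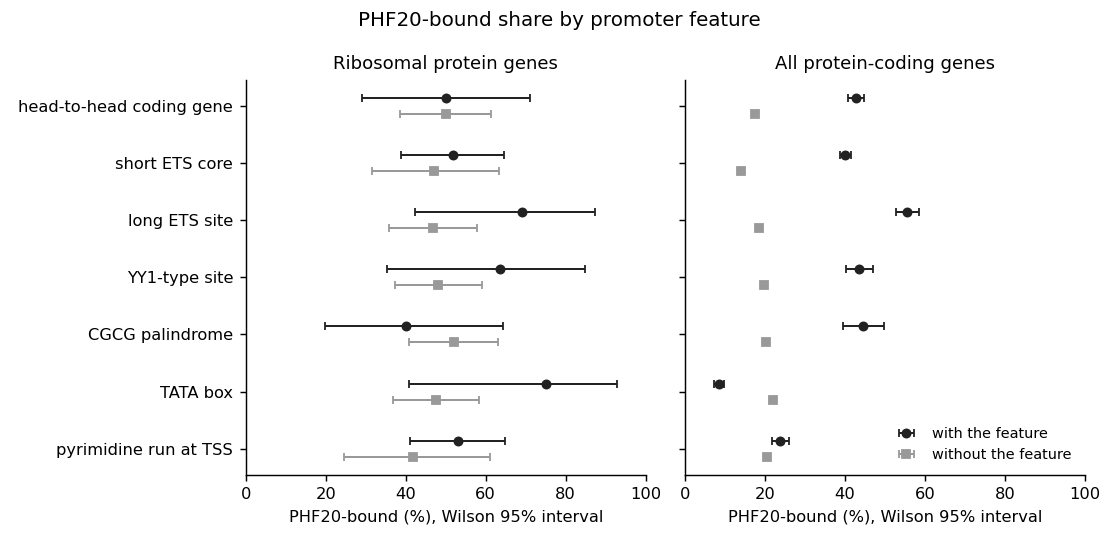
Percentage of genes with a PHF20 peak among those with (black circles) and without (grey squares) a promoter feature, for the 88 ribosomal protein genes and for all protein-coding genes; bars are Wilson 95% intervals. The short ETS core is CTTCCG, the long ETS site ACTTCCGG, the YY1-type site AAGATGGC, the CGCG palindrome TCGCGAGA and the TATA box TATAAA. Each sequence was counted on either strand anywhere in the stretch searched, so the label TATA box covers TATAAA at any position there. For all genes the intervals with and without a feature are apart in every row, from 55.6% and 18.4% for the long ETS site to 23.7% and 20.4% for the pyrimidine run, with the TATA box in the opposite direction; for ribosomal protein genes they overlap in every row.

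A second sequence was found in 6 bound and 9 unbound members. TCGCGAGA, the end of the palindrome TCTCGCGAGA that the factor BANP recognizes, was in 15 members (17.0%, interval 10.6% to 26.2%), beside 1.73% of all promoters. PHF20 bound 6 of these 15 (40.0%, interval 19.8% to 64.3%), among them RPL4, RPL7A, RPL27A, RPS19 and RPS28. The 9 without a peak were RPL7, RPL10, RPL10A, RPL12, RPL17, RPL26, RPS6, RPS15 and RPS15A. None of the 10 members with PHF20L1 held it (0 of 10, which allows a share of up to 30%). Over all protein-coding genes PHF20 bound 44.5% of promoters with and 20.3% of those without it, and PHF20L1 bound 4.62% and 3.81%. In 10 of the 15 members it started between 70 and 40 bases upstream of the TSS, as in the following stretches of the same length as above, from RPS19 and RPL7A, which were bound by PHF20, and from RPL26 and RPS6, which were not. Capitals mark TCGCGAGA on either strand and the pyrimidine run as far as it is shown. They lie at chr19:41860180-41860269 (RPS19, plus), chr9:133348143-133348232 (RPL7A, plus), chr17:8383179-8383268 (RPL26, minus) and chr9:19380222-19380311 (RPS6, minus).
RPS19: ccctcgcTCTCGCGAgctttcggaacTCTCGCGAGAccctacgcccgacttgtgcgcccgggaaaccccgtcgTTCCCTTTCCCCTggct
RPL7A: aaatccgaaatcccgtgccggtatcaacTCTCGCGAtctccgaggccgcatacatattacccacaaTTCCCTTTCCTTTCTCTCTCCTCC
RPL26: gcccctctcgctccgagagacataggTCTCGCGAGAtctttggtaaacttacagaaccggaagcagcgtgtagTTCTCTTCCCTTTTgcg
RPS6: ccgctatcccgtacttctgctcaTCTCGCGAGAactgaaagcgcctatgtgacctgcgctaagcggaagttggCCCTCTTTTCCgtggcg
In RPS19 the narrowly spaced copies lay within the 615 bp PHF20 peak (-380 to 234 bp). In RPL7A the site lay just outside the 298 bp peak, which began at -31 bp.

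The E-box CACGTG, which MYC and USF factors recognize, was in 6 members (6.82%), beside 8.75% of all promoters. PHF20 peaks were at 5 of these 6 (RPL7L1, RPL19, RPL23, RPS2 and RPS28) and not at RPL13A, and PHF20L1 peaks at RPL7L1 and RPL23. The PHF20-bound share was 83.3% of members with the E-box (interval 43.6% to 97%) and 47.6% of those without (interval 37.1% to 58.2%), and the intervals overlap. Over all protein-coding genes it was 27.8% with and 20% without the E-box. The longer form CACGTGAC was in RPS28 alone. RPL7L1, a paralogue bound by both proteins, held the E-box at -116 and the ETS site at -16, both within its PHF20 peak of 1101 bp (-497 to 603 bp). The ETS site also lay in its PHF20L1 peak (-95 to 131 bp), and the E-box lay upstream of it. The stretch at chr6:42879491-42879630 (plus strand, hg38) is shown with both in capitals.
RPL7L1: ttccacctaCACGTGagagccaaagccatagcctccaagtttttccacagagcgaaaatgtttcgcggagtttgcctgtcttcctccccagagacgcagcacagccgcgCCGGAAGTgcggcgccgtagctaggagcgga
AAGATGGC, which YY1 recognizes, was in 11 members (12.5%), beside 4.05% of all promoters. It started from 9 to 28 bases into the transcript in all except RPS28 (-142). PHF20 bound 7 of the 11, among them RPL21, RPL22L1, RPL23A, RPL24, RPS3 and RPS28, and did not bind RPL13A, RPL30, RPL35A and RPS15A. This is 63.6% of members with the sequence (interval 35.4% to 84.8%), beside 48.1% of those without (interval 37.3% to 59.0%), and 43.5% with and 19.7% without over all protein-coding genes. GCATGCGC, which NRF1 recognizes, was in 6 members (6.82%), beside 4.27% of all promoters, and 5 of the 6 (RPL7, RPL10A, RPL36, RPS10 and RPS29) had no peak. The PHF20-bound share was 16.7% of members with it (interval 3.01% to 56.4%) and 52.4% of those without (interval 41.8% to 62.9%). These intervals overlap, and over all protein-coding genes the order was the opposite, 28.9% with and 20.3% without. TATAAA was in 8 members (9.09%), beside 9.71% of all promoters. Of the members with TATAAA, RPL3, RPL7A, RPL22L1, RPS2, RPS3 and RPS28 were bound and RPLP0 and RPL10L were not. The bound share was 75% of members with it (interval 40.9% to 92.9%) and 47.5% of those without (interval 36.9% to 58.3%). Over all protein-coding genes the bound share was 8.37% with TATAAA and 22.0% without it. The promoters with AAGATGGC, GCATGCGC or TATAAA did not include any of the 10 with PHF20L1 (0 of 10 in each case, with the same limit of 30%). Over all protein-coding genes PHF20L1 bound 7.27% of promoters with AAGATGGC and 3.68% of those without it. For GCATGCGC these shares were 3.15% and 3.85%, and for TATAAA 1.85% and 4.03%.

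The pyrimidine run was found in most members, bound or not. A run of at least 5 C or T that contained the TSS was present in 64 members (72.7%, interval 62.6% to 80.9%; median length 12 bases, 5 to 25), beside 7.83% of all protein-coding genes. The first transcribed base was C in 73.9% of members and in 10.7% of all genes. The run was present in 34 of the 44 bound and 30 of the 44 unbound members, and in 7 of the 10 with PHF20L1. PHF20 bound 53.1% of the members with the run (interval 41.1% to 64.8%) and 41.7% of those without (interval 24.5% to 61.2%). The run was in 15 of 17 other genes listed as TOP-type translation genes, which were chosen for such a start. It was in 6 of the 78 mitochondrial ribosomal protein genes.

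**Figure D5:**
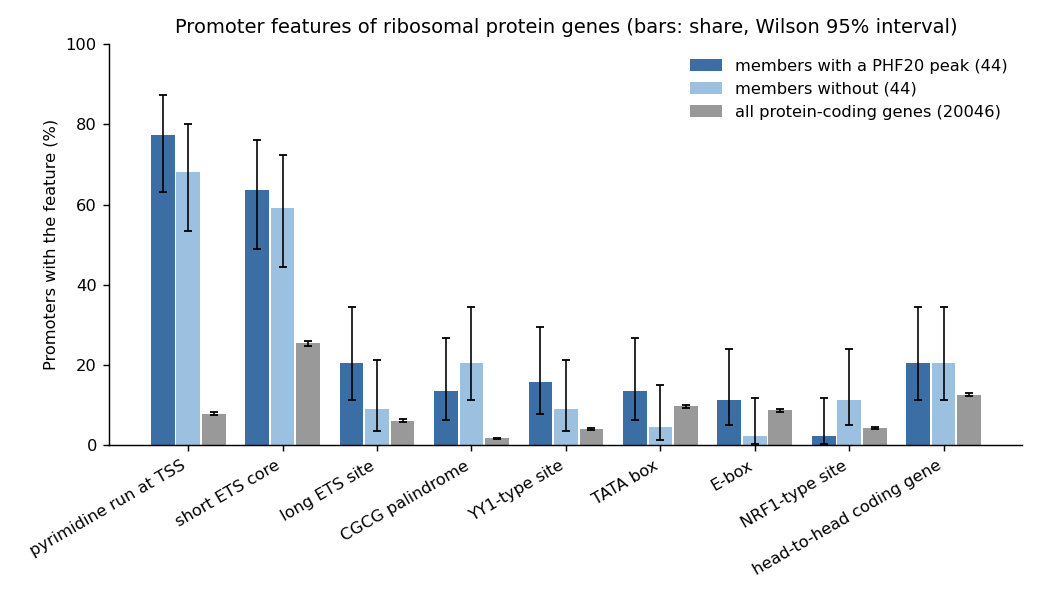
Percentage of promoters with each feature among the 44 ribosomal protein genes with a PHF20 peak (dark blue), the 44 without (light blue) and all 20046 protein-coding genes (grey), with Wilson 95% intervals. The E-box is CACGTG and the NRF1-type site GCATGCGC; the other sequences are those of the plot of bound shares by feature. The pyrimidine run is at 72.7% of all 88 members and 7.83% of all genes, and the intervals of bound and unbound members overlap for every feature.

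The medians of base composition were also close. The 300 bases around the TSS had a median GC content of 60.2% in bound and 59.3% in unbound members, with medians of 25.5 and 23 CpG sites and ratios of observed to expected CpG of 0.92 and 0.88. All bound protein-coding genes had a median GC content of 65.0%. Both classes had a median of 8 annotated start sites. Small nucleolar RNAs guide modification of ribosomal RNA. In 28 members a gene of such an RNA, or of a small Cajal body RNA, lay within the member's bounds on the same strand. PHF20 bound 17 of these 28 (60.7%, interval 42.4% to 76.4%), and of the 60 others it bound 27 (45.0%, interval 33.1% to 57.5%). PHF20L1 bound 5 of the 28 and 5 of the 60. These shares were taken for members alone, without a value over all protein-coding genes.

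Other genes of translation and the proteasome genes were listed for comparison. Among the mitochondrial ribosomal protein genes, which serve translation inside mitochondria, PHF20 bound 53 of 78 (67.9%, interval 57.0% to 77.3%) and PHF20L1 bound 18 (23.1%, interval 15.1% to 33.6%). These PHF20 and PHF20L1 intervals overlap with those of the cytosolic ribosomal protein genes. Of 17 further genes with TOP-type transcripts, PHF20 bound 8 (47.1%, interval 26.2% to 69.0%). They included EEF1A1, which delivers aminoacyl-tRNA to the ribosome (360 bp), EEF1B2, its exchange factor subunit (1138 bp), RACK1, which sits on the small subunit (932 bp), and PABPC1, the poly(A)-binding protein (251 bp). EIF4B, a helicase cofactor, had a PHF20 peak of 340 bp and the only PHF20L1 peak of the list, of 200 bp. FAU, which encodes a ribosomal protein fused to a ubiquitin-like protein and falls outside the symbol rule, had no peak of either protein, and EEF2, NPM1 and TPT1 had none. Of 34 ribosome assembly factors, PHF20 bound 17 (50%, interval 34.1% to 65.9%), among them BOP1, NOP56, NOP58 and SBDS, and PHF20L1 bound EMG1 (438 bp) and LSG1 (344 bp). FBL, the methyltransferase of box C/D small nucleolar particles, DKC1 and NCL had no peak.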

How the data were processed

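ChIP-Seq libraries of U2OS cells with HA-tagged PHF20 or PHF20L1 were grouped by the labels. The authors aligned reads to hg38 with Bowtie 1.1.2, kept unique, deduplicated reads, called peaks against input with MACS2 2.2.7.1 (versions from the submitters' processing notes), removed blacklisted regions and kept peaks of the best replicate that overlapped calls in the others. One PHF20 replicate had been removed by the authors. The deposited lists give peak start and end positions, without a score, and were used as they are, with coordinates counted from 1.

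Peaks were intersected (at least 1 bp) with promoter windows of GENCODE 44 (the study used an earlier release). Positions refer to the Ensembl canonical TSS and, for peaks, the TSS counts as 0. Shares have Wilson 95% intervals, and a share of 0 is given with the limit of 3 counts. Overlap, motif and interval functions were tested on simulated data. Sequences came from hg38. They are shown only for members that the RefSeq promoter table (GRCh38.p14) also lists, 71 of 88. Python 3.11.15, numpy 2.4.6 and matplotlib 3.10.9 were used.

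No test was run, because the lists hold no value per replicate. The members, gene lists, motifs and alternatives were chosen with earlier results of these data known. Genes named are all members with PHF20L1, the 6 widest and 6 narrowest PHF20 peaks, unbound members within 10 kb of a peak, stalk, 5S and paralogous genes, RPLP0 and FAU; the values of some genes are not reported here. Others were named after their values were seen, to account for all members of a class. Alternatives were other TSS sets, windows, overlap rules, peak widths, sequence windows, run lengths and neighbor definitions.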

Additional observations from a re-analysis of the deposited data

How the results depend on the processing

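No paired analysis was possible because only 1 list per protein was used here, of best-replicate peaks that recurred in the others, and no replicate could be left out either. The count of 44 members bound by PHF20 stayed between 40 and 44 under other TSS sets, windows, overlap rules, without paralogues and with peaks of at least 300 bp, and was 30 with peaks of median width or more, where 12.1% of all genes were bound. With the outermost TSS alone, RPL4 and RPL22 lost PHF20 and RPS26 lost PHF20L1. The PHF20L1 count depended on peak width: with peaks of at least 300 bp, 4 members were bound by PHF20L1 and 4 by both proteins, and with peaks of median width or more 4 were bound by PHF20L1 and 3 by both, since fewer peaks were left to count. In both settings PHF20L1 bound 4.55% of members, beside 2.27% and 2.11% of all genes. CACGTG was in 3 members instead of 6 with the sequence from -100 to +50. Genes of any type on the other strand within 1000 bp upstream were found at 38 members and protein-coding ones at 18. The median PHF20 peak width ranged from 684.5 to 726 bp, the median position from -46.5 to -34.2 bp, members with ACTTCCGG from 9 to 14 and members with a pyrimidine run from 62 to 76 over their alternatives. Peaks carry no height, so weak binding under the threshold could not be told from none, and the tagged proteins were overexpressed. The only controls were input libraries, and no HA ChIP of untagged cells was among the samples. Signal of the antibody without the tag was therefore not measured.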
